A study of Mus musculus with 14 samples.

Results

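The insulin-like growth factor (IGF) system was followed through 10 genes, chosen by symbol from the deposited count matrix, which holds 23441 genes. They are the ligands *Igf1* and *Igf2*, the receptor of IGF1 (*Igf1r*), the growth hormone receptor (*Ghr*) and the binding proteins *Igfbp2* to *Igfbp7*. All 10 passed the filter on low counts and were among the 17494 genes tested.

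RNA was sequenced from marrow plugs flushed from the distal tibia, a site rich in constitutive bone marrow adipose tissue (cBMAT), of male C57BL6/SJL mice at 24 weeks of age. Each of the 14 samples pooled the plugs of 2 mice. The BMAd-Pnpla2+/+ mice, in which bone marrow adipocytes (BMAds) keep *Pnpla2*, gave 4 samples fed ad libitum (AL) and 4 samples under caloric restriction (CR), a 30% restriction for 6 weeks. BMAd-Pnpla2-/- mice, in which BMAds lose it, gave 3 samples fed AL and 3 under CR. *Pnpla2* encodes adipose triglyceride lipase, which starts the breakdown of stored triglyceride. The deletion was made with BMAd-Cre, in which a FLP recombinase under *Osterix* switches on a Cre placed in the *Adipoq* gene. In this model a subset of marrow stromal cells is labelled as well as BMAds, and the Cre cassette itself lowers adiponectin. As the study describes its mice, the controls carry the FLP and Cre alleles too and lack the floxed *Pnpla2* alleles, so that both genotypes share the Cre cassette. CR mice were housed singly and fed once a day, shortly before dark.

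IGF1 is made in liver, bone, fat and marrow, largely under growth hormone acting through its receptor and STAT5, and it signals through IGF1R to growth and survival. The classical binding proteins hold IGFs in the circulation and in the pericellular space, where they may block or prolong their action. IGFBP7 binds IGFs only weakly. When food is short, circulating IGF1 usually falls while growth hormone rises, and the marrow adipocyte depot, unlike other fat, tends to expand.

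Read pairs per sample numbered between 25282327 and 27475056, and those counted on a gene without regard to strand between 18898324 and 21665553. Of the gene reads that STAR assigned to a strand, 4.30% to 4.62% lay on the first strand in the 11 samples of the other 3 groups, but 50.1% to 50.5% in the 3 BMAd-Pnpla2-/- CR samples. In the deposited matrix these 3 samples carry unstranded counts and the other 11 reverse-strand counts. The unstranded count of all 14 samples is therefore used throughout, and library type and BMAd-Pnpla2-/- CR cannot be told apart in any comparison that uses that group. *Pnpla2* itself measured 176 to 305 CPM (the read count scaled to library size) in BMAd-Pnpla2+/+ AL, 509 to 1029 in BMAd-Pnpla2+/+ CR, 133 to 172 in BMAd-Pnpla2-/- AL and 179.6 to 271 in BMAd-Pnpla2-/- CR samples, without overlap between the genotypes on either diet. The gap was narrow under AL, where the log2 fold change of *Pnpla2* between genotypes was -0.57 (edgeR unadjusted p = 0.0378). It did not pass after adjustment. Under CR it was -1.91 (edgeR adjusted p = 0.0387). The genotypes did not overlap for 5.45% of all genes under AL and 16.8% under CR. The adipocyte marker *Adipoq* was detected in every sample, from 7.61 to 226.94 CPM.

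Beyond cBMAT, the plugs held marrow stroma, bone cells, vessels and blood-forming cells, and the summed CPM of several marker lists moved with CR. The 9 adipocyte markers summed to 725 to 1861 CPM in BMAd-Pnpla2+/+ AL and 1958 to 4933 in BMAd-Pnpla2+/+ CR samples, and to 316 to 749 and 1261 to 2031 in the AL and CR samples of BMAd-Pnpla2-/- mice. With CR, 9 of the 9 rose in BMAd-Pnpla2+/+ and 8 of the 9 in BMAd-Pnpla2-/- mice. Of all genes tested, 15% and 6.01% were higher with CR in these genotypes (edgeR adjusted p under 0.05). In either direction 26% and 11.6% passed, and the marker counts with CR stand beside these shares. In BMAd-Pnpla2+/+ mice 6 of 7 endothelial, 4 of 8 osteoblast and osteocyte and 2 of 6 marrow stromal markers rose as well, against 0, 1 (*Dmp1*) and 1 (*Kitl*) in BMAd-Pnpla2-/- mice by edgeR, where 2, 1 and 2 had an unadjusted p under 0.05. The summed endothelial markers were 526 to 769.9, 658 to 1318, 487 to 645 and 593 to 777 CPM in BMAd-Pnpla2+/+ AL, BMAd-Pnpla2+/+ CR, BMAd-Pnpla2-/- AL and BMAd-Pnpla2-/- CR samples. In the same order the osteoblast and osteocyte markers summed to 478 to 1107, 707 to 3524, 548 to 1155 and 1235 to 1503 CPM, and the stromal markers to 4324 to 5373, 5069.8 to 9232, 4273 to 7017 and 4946 to 7155 CPM. Neutrophil markers fell for 5 of 7 in BMAd-Pnpla2+/+ mice and for 0 of 7 in BMAd-Pnpla2-/- mice, where 2 had an unadjusted p under 0.05. They summed to 12446 to 33244 CPM over the 14 samples. Of 4 erythroid markers tested, 0 passed in either genotype. Their sums varied widely, at 28015, 8585, 9218 and 43762 CPM in BMAd-Pnpla2+/+ CR replicates 1 to 4, the last the highest of the 14 samples. The 6 markers of pro- and pre-B cells fell in both genotypes. Of 4 T cell markers 3 (*Cd3e*, *Cd8a* and *Trac*) rose with the lipase and 2 (*Cd3e* and *Cd8a*) without it, and their sums did not overlap between diets, at 25.0 to 50.5 CPM under AL and 65.8 to 79.8 under CR with the lipase and 39.8 to 47.1 and 53.7 to 65.2 without it. No marker of the adipocyte, marrow stromal, osteoblast, endothelial, neutrophil, B cell and T cell lists was at 0 in every sample. Summed skeletal muscle markers reached 121 CPM in BMAd-Pnpla2-/- CR replicate 3 and 39.2 in replicate 2. Replicate 1 was at 11.4 CPM, and the 11 samples of the other groups at 7.76 to 31.02. All 5 tested muscle markers were higher in BMAd-Pnpla2-/- CR than in BMAd-Pnpla2+/+ CR samples. By edgeR 4 of them had an unadjusted p under 0.05, and 0 passed after adjustment. In bulk RNA such as this, more cells of a type and more RNA per cell cannot be told apart, and the part of these shifts in the changes below was not tested.

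**Figure D1:**
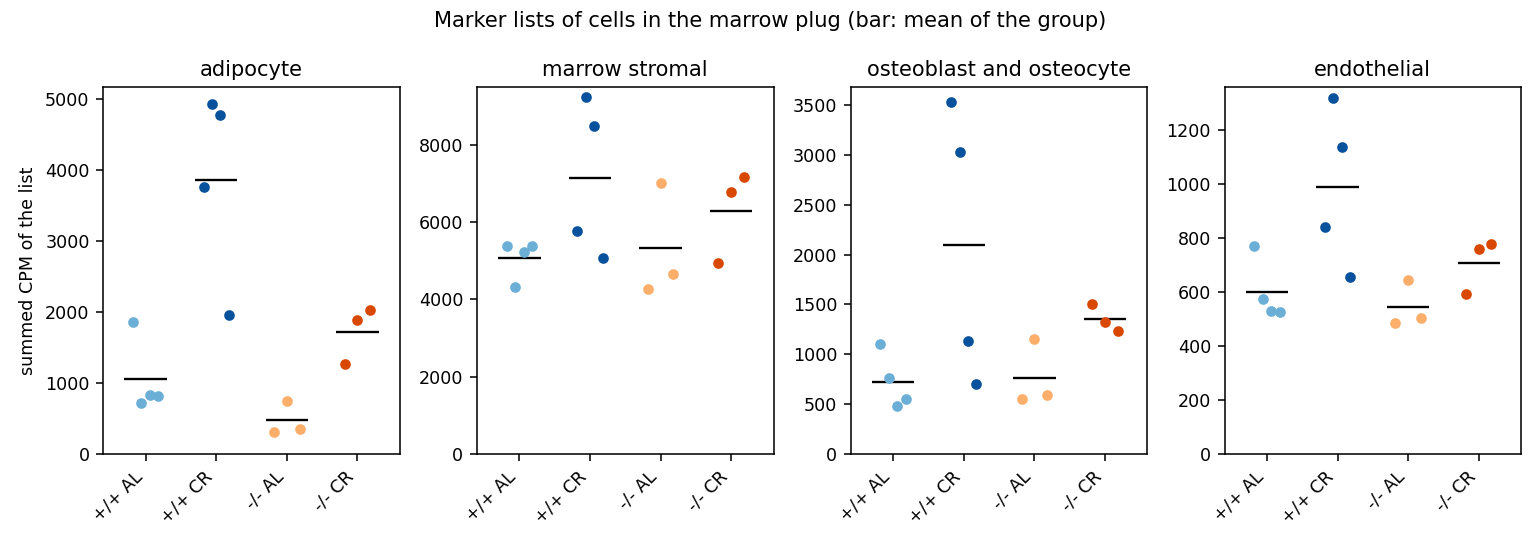
Summed CPM of 4 lists of marker genes in each of the 14 samples, by diet (AL or CR) and genotype (points: samples, bars: group means). In BMAd-Pnpla2+/+ mice the adipocyte list is highest among AL samples in replicate 1, at 1861 CPM, and lowest among CR samples in replicate 4, at 1958 CPM.

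Of the IGF system genes, 3 passed the edgeR test as higher with CR in both genotypes: *Ghr*, *Igfbp3* and *Igfbp5*. Their promoters are shown for that reason alone. *Igf1* changed by nearly as much as *Igfbp5* but passed this test in BMAd-Pnpla2+/+ mice only, as given below. Each window is the 250 bases before a transcription start, 5′ to 3′ on the strand of the gene, from RefSeq on GRCm38.p6. The windows are chr15:3583353-3583602 and chr15:3581843-3582092 for the 2 listed starts of *Ghr*, chr11:7213924-7214173 for *Igfbp3* and chr1:72874866-72875115 for *Igfbp5*, all on the minus strand. Capitals mark matches to TATANA on either strand.
*Ghr*, first start: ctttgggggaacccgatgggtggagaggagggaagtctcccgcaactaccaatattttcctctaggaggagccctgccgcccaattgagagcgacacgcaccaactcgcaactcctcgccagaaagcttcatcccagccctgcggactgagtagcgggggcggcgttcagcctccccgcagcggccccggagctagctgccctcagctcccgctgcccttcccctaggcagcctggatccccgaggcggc
*Ghr*, second start: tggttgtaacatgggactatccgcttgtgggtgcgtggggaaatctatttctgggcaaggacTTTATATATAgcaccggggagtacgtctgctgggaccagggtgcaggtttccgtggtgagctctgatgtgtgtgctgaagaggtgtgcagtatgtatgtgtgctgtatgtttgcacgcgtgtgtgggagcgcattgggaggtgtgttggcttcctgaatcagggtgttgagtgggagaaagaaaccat
*Igfbp3*: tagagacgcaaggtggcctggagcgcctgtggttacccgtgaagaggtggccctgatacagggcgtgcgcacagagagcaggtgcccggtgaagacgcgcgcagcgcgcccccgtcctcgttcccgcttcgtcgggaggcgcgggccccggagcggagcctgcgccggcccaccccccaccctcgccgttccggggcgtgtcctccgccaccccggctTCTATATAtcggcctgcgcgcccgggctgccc
*Igfbp5*: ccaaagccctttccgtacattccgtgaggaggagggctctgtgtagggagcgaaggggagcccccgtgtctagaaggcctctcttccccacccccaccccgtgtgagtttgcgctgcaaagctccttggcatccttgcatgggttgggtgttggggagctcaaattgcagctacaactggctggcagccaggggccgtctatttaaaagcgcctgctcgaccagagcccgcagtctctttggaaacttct
Of 4 motifs searched on both strands, GTAAACA (bound by FOXO factors), AGAACA (a core motif of the glucocorticoid receptor) and TTCNNNGAA (bound by STAT5) had no match in these 4 windows. Matches to TATANA lay 32 and 30 bases before the start of *Igfbp3* and 188, 186 and 184 bases before the second start of *Ghr*, each run being overlapping matches. In *Igfbp4* the motif lay 28 bases before the start, and in *Igfbp6* 148 and 146 bases before it. Among all 32851 RefSeq windows of that length, 3.17% held GTAAACA, 16.1% AGAACA, 7.02% TTCNNNGAA and 22.6% TATANA. All 10 genes had an entry, with 15 windows in all, and among the other 11 windows AGAACA occurred once in *Igf2* and once in *Igfbp2*.

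The level of the IGF system genes in the marrow plugs spanned more than 3 orders of magnitude, with *Igf2* at the low end. On the scale of CPM per kb of merged exon, which allows genes to be compared, *Igfbp4* (262 ± 43.3, SD, n = 4) and *Igfbp7* (262 ± 51.2) led in BMAd-Pnpla2+/+ AL samples and were followed by *Igfbp5* (160.3 ± 47.3). *Igfbp4* exceeded *Igfbp7* in only 1 of the 4 samples, so that this pair had no order on this scale. Far below came *Igf1* (8.67 ± 0.767), *Igf1r* (7.47 ± 0.600), *Ghr* (6.39 ± 2.92), *Igfbp3* (2.70 ± 1.45), *Igfbp6* (1.81 ± 0.757), *Igfbp2* (0.510 ± 0.380) and *Igf2* (0.0791 ± 0.0263). From *Igf1* to *Igfbp2* each gene overlapped its neighbour in range. The level of *Igf2* is understated, since reads on the 62.8% of its exon length shared with *Gm49394* are in neither count. Its last place and the span are not corrected for this. With the length of the longest transcript in place of merged exons, *Ghr* moved from rank 6 to rank 4, above *Igf1* and *Igf1r*. On that length *Igfbp4* made up 41.4% and *Igfbp7* 35.9% of the summed binding proteins on average. With merged exons these shares were 38.2% and 37.9%, so that the standing of this pair depended on the length used. Under CR the same 3 led, with *Igfbp7* above *Igfbp5* in 2 of 4 samples, and *Ghr* (33.6 ± 12.5) and *Igfbp3* (19.6 ± 7.81) moved above *Igf1* (16.7 ± 5.54). In BMAd-Pnpla2-/- samples the order of the group means was the same under AL. Here *Igfbp4* exceeded *Igfbp7* in 3 of 3 samples, and *Igf1* exceeded *Igf1r* in only 1 of 3. In BMAd-Pnpla2-/- samples under CR, *Igfbp5* (309 ± 81.4, n = 3) stood above *Igfbp7* (234 ± 66.7) in 3 of 3 samples.

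**Figure D2:**
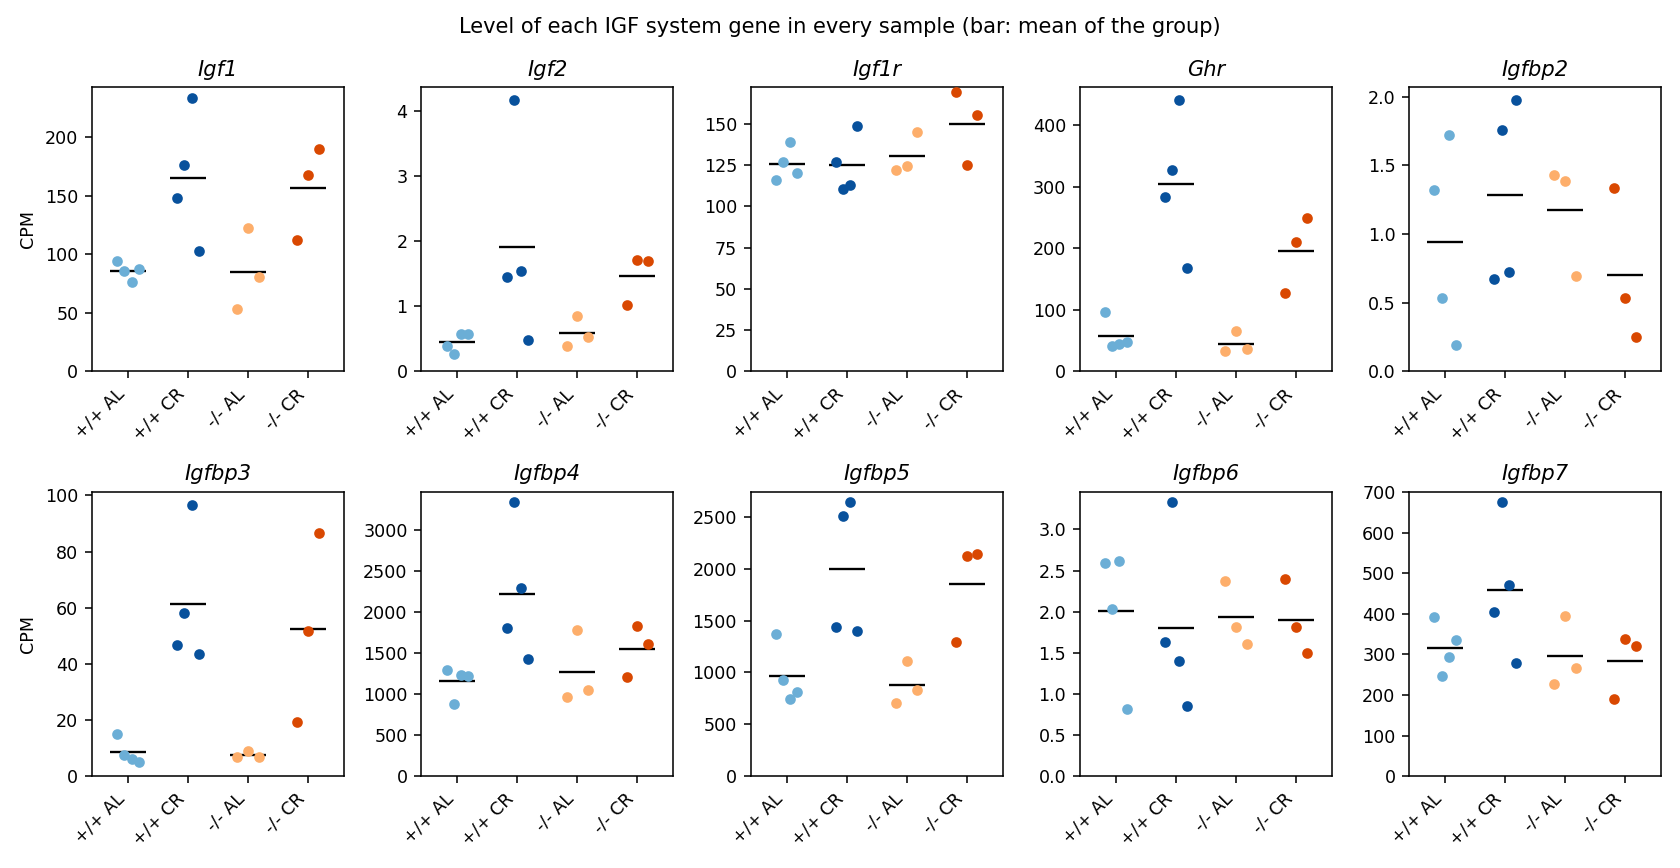
CPM of each of the 10 IGF system genes in the 14 samples, on linear axes from 0 (points: samples, bars: group means; +/+ and -/- are BMAd-Pnpla2 genotypes). *Ghr*, *Igfbp3* and *Igfbp5* CR samples lie above all AL samples of the same genotype, while *Igf1r* stays between 110.5 and 169 CPM in every sample.

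The first question was which of these genes respond to CR when BMAds keep their lipase. In BMAd-Pnpla2+/+ mice, 6 of the 10 were higher under CR (edgeR adjusted p, padj, under 0.05 over all genes tested) and none was lower. Both ligands, *Ghr*, *Igfbp3*, *Igfbp4* and *Igfbp5* made up the 6, while *Igf1r*, *Igfbp2*, *Igfbp6* and *Igfbp7* did not pass. The CR response was wide in this tissue: 26% of all genes tested passed in either direction and 15% as higher. Of the 6, 4 also exceeded an absolute log2 fold change of 1, which 9.19% of all genes did. For 5 genes the CR and AL samples did not overlap, as was so for 22.7% of all genes. The median log2 fold change was 0.94 over the 10 genes and 0.00 over all genes tested.

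Of the 10 genes, 3 were higher under CR when BMAds lack the lipase, *Ghr*, *Igfbp3* and *Igfbp5*, and none was lower, beside 11.6% of all genes tested in either direction and 6.01% as higher. That share stands for 2025 genes, and the count was 248 when BMAd-Pnpla2-/- CR replicate 3 was left out. All 3 members exceeded a log2 fold change of 1, as 3.52% of all genes did with padj under 0.05. The CR and AL samples did not overlap for *Ghr*, *Igfbp3*, *Igfbp5* and *Igf2*, as for 37.8% of all genes. The median log2 fold change was 0.58 over the 10 genes and 0.05 over all genes. Fewer calls in this genotype do not show a smaller response. The difference between the genotypes in the response to CR was tested for each gene, and edgeR called 0 of the 10 and 0% of all genes tested. By an unadjusted p under 0.05, 0 of the 10 and 1824 of all genes differed, and DESeq2 called 0 of the 10 and 65 of all genes.

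**Figure D3:**
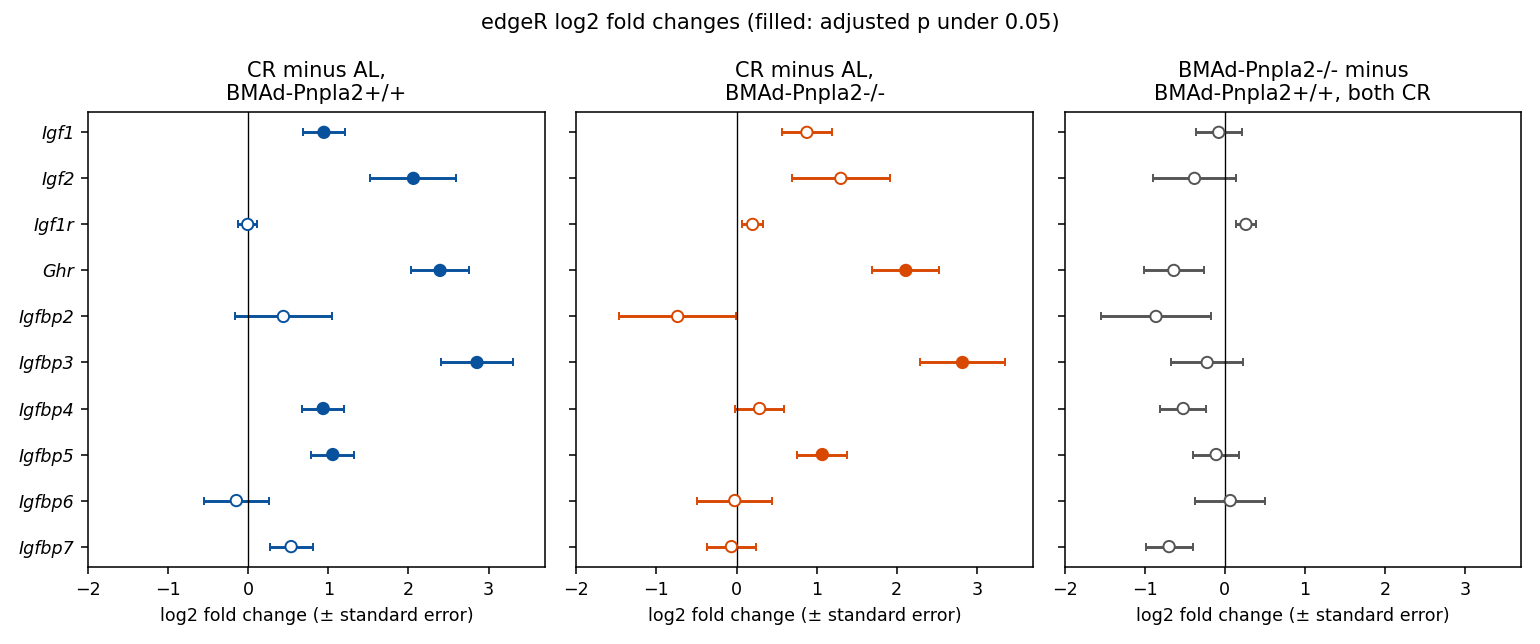
log2 fold changes of the 10 genes with their standard errors, for CR against AL in each genotype and for BMAd-Pnpla2-/- against BMAd-Pnpla2+/+ mice under CR (filled: padj under 0.05). *Ghr* and *Igfbp3* exceed 2 in both genotypes, and no gene is filled in the comparison of genotypes.

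Among the ligands, *Igf1* (ENSMUSG00000020053.18, chr10:87858265-87937042, plus strand, GRCm38) rose 1.92-fold in BMAd-Pnpla2+/+ mice. Its CPM was 94.7, 85.4, 76.2 and 87.2 in the 4 AL samples and 148, 177, 234 and 102 in the 4 CR samples. Every CR sample exceeded every AL sample, and replicate 4 was the lowest of the CR samples, close to the AL range. The log2 fold change was 0.94 (standard error, SE, 0.27, padj = 0.0232). Without the lipase, CPM of *Igf1* was 53.1, 122 and 80.6 under AL and 113, 168 and 190.0 under CR. Here 1 AL sample lay above the lowest CR sample, and the log2 fold change of 0.88 (SE 0.31, padj = 0.0789) did not pass, although DESeq2 gave padj = 0.0424. It did pass without BMAd-Pnpla2+/+ CR replicate 4 (padj = 0.0497) or BMAd-Pnpla2-/- AL replicate 2 (padj = 0.0290). Between the genotypes the response differed by -0.07 (95% interval -0.94 to 0.80). The call in BMAd-Pnpla2+/+ mice was lost without AL replicate 2, AL replicate 3 or CR replicate 3, with padj = 0.0508, 0.0660 and 0.0762.

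*Igf2* (ENSMUSG00000048583.16, chr7:142650766-142666816, minus strand), a fetal growth factor that is silenced after birth in most mouse tissues, was present at a few reads per sample. It had between 5 and 12 counts in BMAd-Pnpla2+/+ AL samples and 30, 90, 34 and 9 counts in CR replicates 1 to 4. On the CPM scale these were 0.392, 0.267, 0.574 and 0.577 under AL and 1.44, 4.16, 1.53 and 0.481 under CR. Of the 4 CR samples 3 exceeded every AL sample, and replicate 4 lay within the AL range. That made a log2 fold change of 2.06 (SE 0.54, padj = 0.0161), and without CR replicate 2, which held 90 counts, it was 1.34 with padj = 0.0543. The BMAd-Pnpla2-/- samples measured 0.386, 0.854 and 0.536 under AL and 1.01, 1.71 and 1.69 under CR, without overlap. Their log2 fold change was 1.30 (SE 0.61, padj = 0.177). As annotated, 62.8% of the exon length of *Igf2* is shared with *Gm49394* on the same strand, which was listed at 0 counts in every sample, and reads that lie on both genes are in neither count. On the other strand *Igf2os* overlaps 1.71% of it.

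Of the receptors, *Igf1r* (ENSMUSG00000005533.10, chr7:67952827-68233668, plus strand) did not pass a test in any comparison. Its CPM ranged from 116 to 139 in BMAd-Pnpla2+/+ AL, 110.5 to 149 in BMAd-Pnpla2+/+ CR, 122 to 145 in BMAd-Pnpla2-/- AL and 125 to 169 in BMAd-Pnpla2-/- CR samples. The 4 ranges overlapped. With CR, its log2 fold change was -0.01 (95% interval -0.26 to 0.24) in BMAd-Pnpla2+/+ mice and 0.20 (95% interval -0.09 to 0.49) in BMAd-Pnpla2-/- mice, and its sign in the former turned with the scaling of the libraries. Among the 10 genes it had the smallest standard error, and a change of 2-fold lay outside both intervals.

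*Ghr* (ENSMUSG00000055737.12, chr15:3317760-3583492, minus strand), through which growth hormone acts on fat, bone and liver, rose about 5-fold in BMAd-Pnpla2+/+ mice. Its CPM was 97.2, 40.6, 45.3 and 48.4 under AL and 283, 327, 441 and 167 under CR. The CR samples lay above the AL samples without overlap. AL replicate 1 was high and CR replicate 4 low in their groups. The summed adipocyte markers of these samples stood in the same places, at 1861 and 1958 CPM. So did the summed endothelial (769.9 and 658 CPM), osteoblast and osteocyte (1107 and 707 CPM) and macrophage markers (1398 and 960 CPM). Stromal markers stood lowest among CR samples in replicate 4. In AL replicate 1 they summed to 5369 CPM, nearly the same as the highest AL sample, replicate 4, at 5373 CPM. The part of these cells in the *Ghr* values was not tested. The log2 fold change was 2.39 (SE 0.36, padj = 0.00182). The BMAd-Pnpla2-/- samples gave a CPM of 32.8, 65.8 and 37.1 under AL and 128, 210.0 and 249.8 under CR, again without overlap. This made a log2 fold change of 2.11 (SE 0.42, padj = 0.0116), with padj = 0.0504 without BMAd-Pnpla2-/- AL replicate 1 and 0.0506 without BMAd-Pnpla2-/- CR replicate 3. The responses of the genotypes differed by -0.28 (95% interval -1.43 to 0.86).

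Among the binding proteins, *Igfbp3* (ENSMUSG00000020427.11, chr11:7206086-7213923, minus strand), the main carrier of IGFs in blood, had the largest fold change of the 10 genes in both genotypes. Its CPM was 15.1, 7.49, 6.16 and 5.05 in BMAd-Pnpla2+/+ AL and 46.6, 58.0, 96.7 and 43.5 in BMAd-Pnpla2+/+ CR samples. Its CPM in the other genotype was 6.67, 8.91 and 6.70 under AL and 19.4, 51.5 and 86.6 under CR. Neither pair of groups overlapped, and the 3 BMAd-Pnpla2-/- CR samples spread over more than 4-fold. These were log2 fold changes of 2.86 (SE 0.45, padj = 0.00212) with the lipase and 2.82 (SE 0.53, padj = 0.00977) without it. The responses of the genotypes differed by -0.03 (95% interval -1.46 to 1.39), an interval that leaves room for more than a 2-fold difference in either direction. Both calls held without any 1 of the 14 samples, with padj of at most 0.0105 with the lipase and 0.0444 without it.

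*Igfbp5* (ENSMUSG00000026185.8, chr1:72857932-72874884, minus strand), a binding protein abundant in bone that binds matrix, lies next to *Igfbp2* on chromosome 1. Its CPM was 1372, 929.9, 741 and 807 in BMAd-Pnpla2+/+ AL and 1438, 2512, 2646 and 1402 in BMAd-Pnpla2+/+ CR samples. The groups did not overlap, but AL replicate 1 and CR replicate 4 differed by little. On the log2 scale the change was 1.05 (SE 0.27, padj = 0.0155). Among BMAd-Pnpla2-/- samples the CPM was 707, 1112 and 831 under AL and 1291, 2127 and 2148 under CR, with no overlap, and the log2 fold change was 1.07 (SE 0.31, padj = 0.0424). With each of the 14 samples left out in turn, 12 of 14 fits kept the call in BMAd-Pnpla2+/+ mice (padj up to 0.0516, lost without AL replicate 3 or CR replicate 3) and 8 of 14 in BMAd-Pnpla2-/- mice, where padj reached 0.161. That call was lost without BMAd-Pnpla2+/+ AL replicates 3 or 4, BMAd-Pnpla2-/- AL replicates 1 or 3, or BMAd-Pnpla2-/- CR replicates 2 or 3. *Igfbp2* (ENSMUSG00000039323.18, chr1:72824503-72852474, plus strand), which falls with adiposity in blood, had 4 to 38 counts per sample. Its log2 fold change with CR was 0.44 (95% interval -0.86 to 1.74) in BMAd-Pnpla2+/+ and -0.74 (95% interval -2.30 to 0.83) in BMAd-Pnpla2-/- mice, so that at this depth a change of 2-fold in 1 direction lay within each interval.

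*Igfbp4* (ENSMUSG00000017493.12, chr11:99041244-99054392, plus strand), which mostly inhibits IGF action and is cut by the protease PAPPA, had the highest mean level per kb of the 10 genes in each of the 4 groups. In BMAd-Pnpla2+/+ mice its CPM was 1296, 874, 1235 and 1223 under AL and 1803, 3338, 2288 and 1422 under CR. The CR samples lay above the AL samples, with a log2 fold change of 0.94 (SE 0.26, padj = 0.0226). The BMAd-Pnpla2-/- samples measured 966, 1781 and 1047 under AL and 1202, 1826 and 1603 under CR. The groups overlapped, and the log2 fold change was 0.29 (SE 0.30, padj = 0.570). Between the genotypes the response differed by -0.65 (95% interval -1.51 to 0.21, unadjusted p = 0.128, padj = 0.576), so that a smaller response in BMAd-Pnpla2-/- mice was not shown. The call in BMAd-Pnpla2+/+ mice was lost without AL replicates 2 or 3 or CR replicates 2 or 3, with padj from 0.0512 to 0.0715.

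*Igfbp7* (ENSMUSG00000036256.13, chr5:77349240-77408041, minus strand), a vessel-associated protein that also binds insulin and activin, did not pass in either genotype. Its CPM was 391, 246, 292 and 335 in BMAd-Pnpla2+/+ AL and 405, 676, 471 and 279 in BMAd-Pnpla2+/+ CR samples, and 3 of 4 CR samples exceeded every AL sample. Among BMAd-Pnpla2-/- samples it was 227, 394 and 266 under AL and 190.0, 337 and 322 under CR, and the ranges overlapped. The log2 fold change with CR was 0.53 (SE 0.27, padj = 0.153) in the former, where it became 0.71 with padj = 0.0442 without CR replicate 4, and -0.06 (SE 0.31, padj = 0.916) in the latter. The summed endothelial markers had their highest median, 990 CPM, in BMAd-Pnpla2+/+ CR samples. That range overlapped those of BMAd-Pnpla2+/+ AL and BMAd-Pnpla2-/- CR samples. The adipocyte, osteoblast and osteocyte, and stromal lists also had their highest medians in this group. The part of these cells in the level of *Igfbp7* was not tested. Antisense *Polr2b* shares 7.03% of its exon length. *Igfbp6* (ENSMUSG00000023046.6, chr15:102144362-102149511, plus strand), which prefers IGF2, had 16 to 72 counts per sample. Its log2 fold change was -0.15 (95% interval -1.01 to 0.72) in BMAd-Pnpla2+/+ and -0.02 (95% interval -1.03 to 0.98) in BMAd-Pnpla2-/- mice.

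*Igfbp7* took a smaller part of the IGFBP transcripts in the CR samples than in the AL samples of both genotypes. To show this, each binding protein was expressed as its share of the summed level of the 6, in CPM per kb of exon, as a description with no test. *Igfbp7* made up 36.3% to 40.1% of the sum in BMAd-Pnpla2+/+ AL and 28.2% to 33.5% in BMAd-Pnpla2+/+ CR samples, and 35.4% to 36.7% and 24.1% to 26.2% in BMAd-Pnpla2-/- AL and CR samples. The CR samples lay below the AL samples in both genotypes, and BMAd-Pnpla2-/- CR samples below BMAd-Pnpla2+/+ CR samples. The shares depend on the gene length used. In the same order of groups, the mean share of *Igfbp7* was 37.9%, 30.6%, 35.9% and 25.5% with merged exons. With the length of the longest transcript it was 35.9%, 28.8%, 33.8% and 24.1%. *Igfbp5* made up 18.98% to 27.6% and 23.8% to 31.9% in BMAd-Pnpla2+/+ AL and CR samples, which overlapped. Without the lipase its share went from between 20.1% and 23.1% under AL to between 32.9% and 35.2% under CR, above all other samples. *Igfbp3* stayed a small part, 0.233% to 0.564% and 1.06% to 2.24% in the AL and CR samples of BMAd-Pnpla2+/+ mice, and 0.310% to 0.403% and 0.950% to 2.72% in BMAd-Pnpla2-/- samples. *Igfbp4* held 34.4% to 43.9% in the 14 samples without a separation of groups. With the lipase, the summed level was 689 ± 122 CPM per kb under AL and 1235 ± 422 under CR, and *Igf1* stood at 1.28% ± 0.184 and 1.38% ± 0.295 of it. Without the lipase *Igf1* stood at 1.24% ± 0.195 of the sum under AL and 1.74% ± 0.149 under CR, and the sum at 683 ± 208 and 911 ± 225 CPM per kb.

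**Figure D4:**
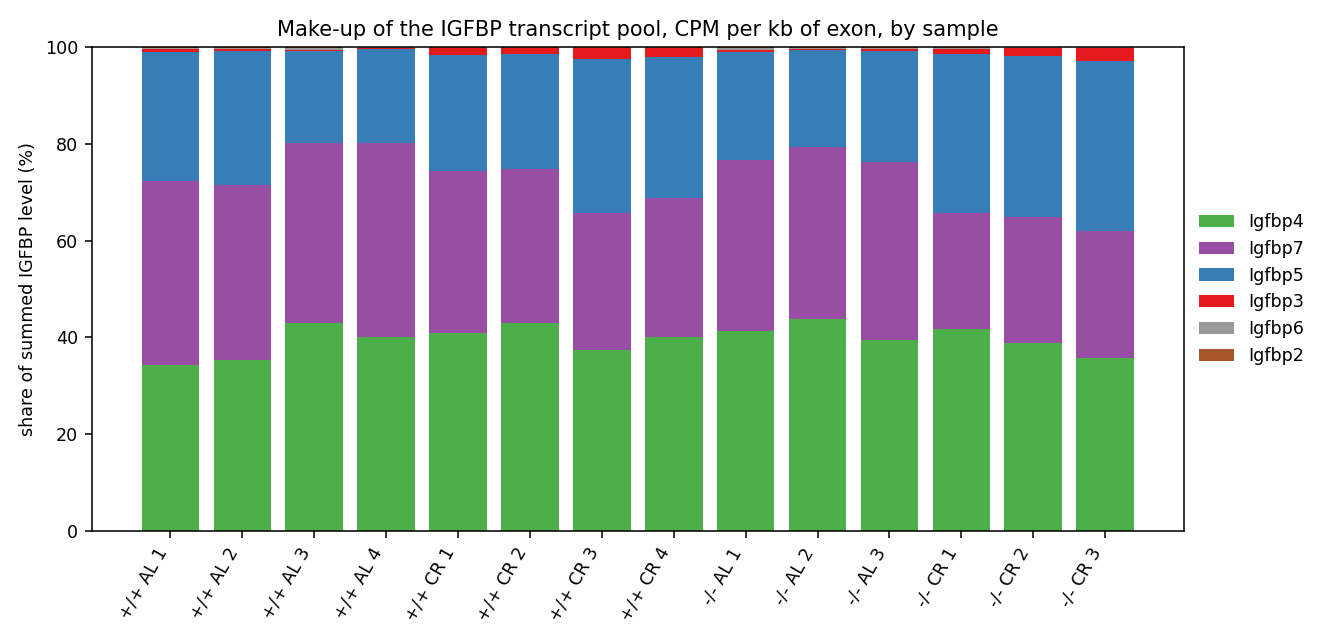
Share of each of the 6 binding proteins in their summed level (CPM per kb of merged exon), in each of the 14 samples (stacked bars to 100%). *Igfbp7* is between 35.4% and 40.1% in the AL samples and between 24.1% and 33.5% in the CR samples.

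The second question was whether loss of the lipase in BMAds altered these genes on 1 diet. Under AL, 0 of the 10 genes differed between the genotypes by edgeR, as did 0% of all genes tested. At an unadjusted p under 0.05, 0 of the 10 and 694 of all genes differed, and DESeq2 called 0 of the 10 and 19 of all genes. None of the 10 separated the 3 BMAd-Pnpla2-/- from the 4 BMAd-Pnpla2+/+ samples, as 5.45% of all genes did. The largest difference under AL was a log2 fold change of 0.38 (95% interval -0.97 to 1.73) for *Igf2*. Under CR, edgeR called 0 of the 10 genes and 3 of all genes, or 0.0171%, *Pnpla2* among them. The groups did not overlap for 0 of the 10 and for 16.8% of all genes. At an unadjusted p under 0.05, 1 of the 10 stood out, against 4052 of all genes. This was *Igfbp7*, for which mice lacking the lipase had a log2 difference of -0.70 (SE 0.29, 95% interval -1.33 to -0.06, unadjusted p = 0.0337, padj = 0.183). The calls over all genes in this comparison were unstable, with 1617 by DESeq2 and 2451 from the deposited counts, which mix strands, but both called 0 of the 10. Of the 10, 8 had a negative log2 fold change, as did 8979 of the 17494 genes tested. *Ghr* was at -0.64 (95% interval -1.45 to 0.18), and *Igf1r*, among the positive ones, at 0.26 (95% interval -0.01 to 0.53). The summed adipocyte markers were at 1261 to 2031 CPM in BMAd-Pnpla2-/- CR against 1958 to 4933 in BMAd-Pnpla2+/+ CR samples. For the endothelial markers these were 593 to 777 and 658 to 1318 CPM. The part of these cells in the differences was not tested.

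The wider pathway was followed in 6 lists. Their counts stand beside 15% (with the lipase) and 6.01% (without it) of all genes tested that were higher with CR, and 26% and 11.6% called in either direction. With and without the lipase, the median log2 fold change was 0.46 and 0.32 for other carriers and receptors, 0.88 and 0.60 for proteases and their inhibitors, 0.10 and 0.06 for the *Igf2* locus and IGF2 mRNA binding proteins, and 0.00 and 0.05 over all genes tested. Among other carriers and receptors, 2 of the 4 tested genes rose with CR when BMAds kept the lipase, and 1 when they lacked it. *Igfals*, the acid-labile subunit that joins IGF and IGFBP3 in a ternary complex, measured 4.06 ± 2.44 CPM (SD, n = 4) under AL and 16.1 ± 6.198 (n = 4) under CR in BMAd-Pnpla2+/+ mice, a log2 fold change of 1.98 (SE 0.45, padj = 0.00942). The change was 1.67 (SE 0.55, padj = 0.0642) on the log2 scale without the lipase. *Insr*, the insulin receptor, rose in both, by a log2 fold change of 0.51 (padj = 0.0154) and 0.71 (padj = 0.0140). *Igfbp1*, the binding protein that fasting induces in liver, was listed at 0 counts in every sample and was not tested.

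Proteases that cut binding proteins, and the inhibitors of these proteases, rose for 3 of 6 genes in BMAd-Pnpla2+/+ mice and 0 of 6 in BMAd-Pnpla2-/- mice, where 2 had an unadjusted p under 0.05. *Stc2*, which inhibits PAPPA, went from 0.950 ± 0.344 to 7.59 ± 3.02 CPM, a log2 fold change of 2.99 (SE 0.55, padj = 0.00416), in BMAd-Pnpla2+/+ mice. Without the lipase it stood at 1.46 ± 1.4998 and 4.83 ± 1.84 CPM, and the log2 fold change was 1.72 (SE 0.62, padj = 0.0844). *Pappa2*, a protease of IGFBP5 with fewer counts, was at 2.41 (padj = 0.00888) and 1.81 (padj = 0.0704) on the log2 scale. *Adam12*, a metalloprotease that cuts IGFBP3 and IGFBP5, rose by 1.11 (SE 0.23, padj = 0.00670) on the log2 scale in BMAd-Pnpla2+/+ mice and stood at 0.57 (SE 0.27, padj = 0.182) in BMAd-Pnpla2-/- mice. Of growth hormone signalling, 1 of 7 genes rose in BMAd-Pnpla2+/+ mice and 0 of 7 in BMAd-Pnpla2-/- mice. These counts are near the 15% and 6.01% of all genes that were higher, and the median log2 fold change of the list was -0.02 and -0.14. The gene was *Socs2*, a feedback inhibitor induced by STAT5, with a log2 fold change of 0.99 (SE 0.25, padj = 0.0134) in the former and 0.64 (SE 0.28, padj = 0.154) in the latter. *Jak2*, *Stat5a* and *Stat5b* did not pass in either. In BMAd-Pnpla2-/- mice 2 genes of the list had an unadjusted edgeR p under 0.05, in opposite directions. They were *Socs2*, which was higher, and *Stat5a*, which was lower (log2 fold change -0.22, unadjusted p = 0.0202, padj = 0.101).

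Among receptor substrates and kinases, 5 of 20 genes rose with CR in BMAd-Pnpla2+/+ mice, 3 of 20 in BMAd-Pnpla2-/- mice, and none fell, beside 15% and 6.01% of all genes that were higher. The median log2 fold change of the list was 0.01 and 0.07. *Irs1*, a docking protein of the IGF1 and insulin receptors, went from 9.86 ± 2.94 to 34.2 ± 12.5 CPM in BMAd-Pnpla2+/+ mice, a log2 fold change of 1.80 (SE 0.31, padj = 0.00314), and rose by 1.19 (SE 0.36, padj = 0.0475) in BMAd-Pnpla2-/- mice. *Grb10*, an adaptor that restrains the same receptors, rose by 1.18 (SE 0.20, padj = 0.00304) and 0.86 (SE 0.24, padj = 0.0349). The other genes that passed were *Pik3r1*, a regulatory subunit of PI3 kinase, at 0.54 (padj = 0.0103) and 0.59 (padj = 0.0233), and, in BMAd-Pnpla2+/+ mice, *Irs2* at 0.41 (padj = 0.0128) and *Sos1* at 0.27 (padj = 0.0256). FOXO factors and genes known as their targets split, with 4 of 11 higher and 2 of 11 lower in BMAd-Pnpla2+/+ mice and 3 higher and 1 lower in BMAd-Pnpla2-/- mice, beside 26% and 11.6% of all genes called in either direction. The median log2 fold change of the list was 0.29 and 0.09. *Pdk4*, which spares glucose by blocking pyruvate dehydrogenase, rose by 2.38 (SE 0.45, padj = 0.00449) and 2.12 (SE 0.52, padj = 0.0234). *Txnip* and *Sesn1* rose in both genotypes, *Cited2* rose and *Ccng2* and *Gadd45a* fell in BMAd-Pnpla2+/+ mice, and *Bcl6* fell in BMAd-Pnpla2-/- mice, by 0.29 to 0.89 in absolute log2 fold change. Of the *Igf2* locus and the IGF2 mRNA binding proteins, 1 of 4 genes rose in BMAd-Pnpla2+/+ mice and 0 of 4 in BMAd-Pnpla2-/- mice, where 0 had an unadjusted p under 0.05. The gene was the antisense *Igf2os*, which had at most 17 counts in a sample, with a log2 fold change of 2.76 (padj = 0.0193). *Igf2bp2* had a log2 fold change of 0.42 (SE 0.24, padj = 0.198) and 0.18 (SE 0.27, padj = 0.703).

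**Figure D5:**
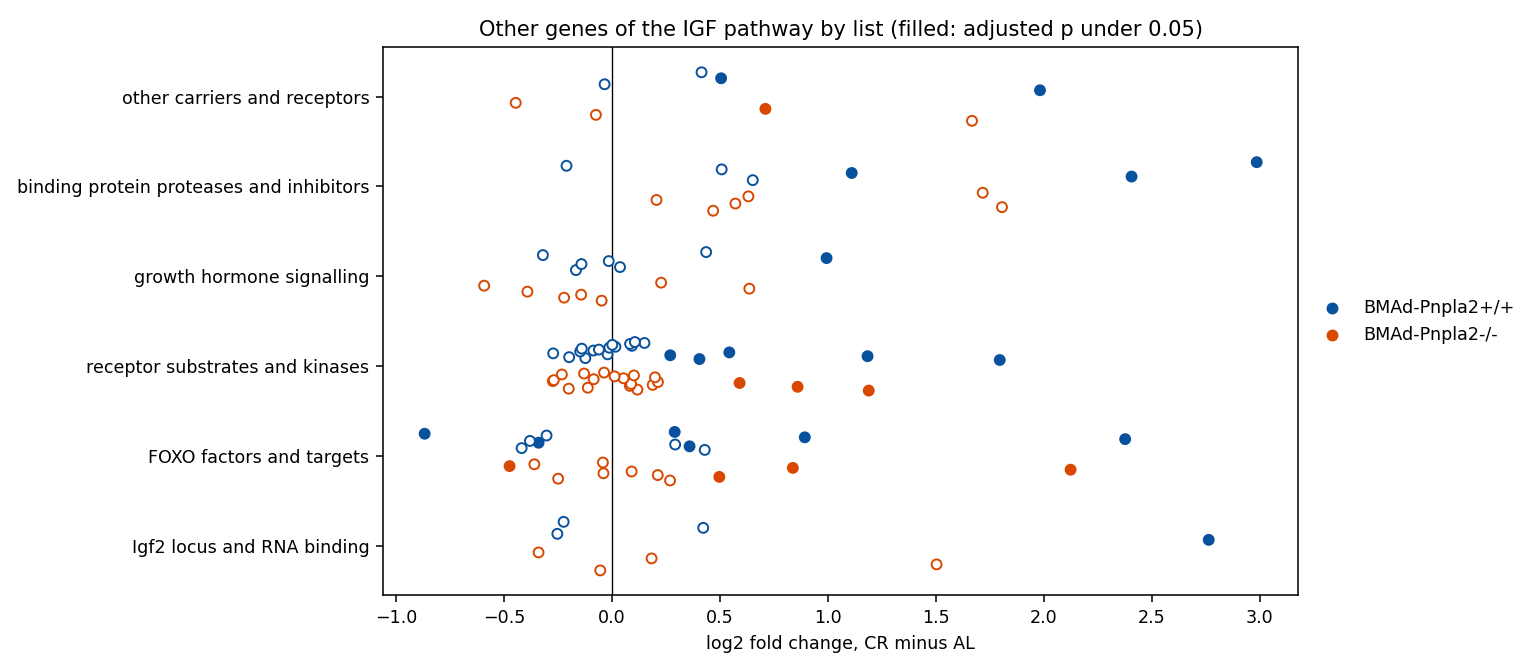
log2 fold change of CR against AL for each tested gene of 6 pathway lists, in BMAd-Pnpla2+/+ mice (blue) and BMAd-Pnpla2-/- mice (orange), filled where padj was under 0.05. *Stc2* is at 2.99 in BMAd-Pnpla2+/+ mice, while most receptor substrates and kinases lie near 0.

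Across the 14 samples, the genes most like each responding member were those with the smallest root mean square difference of centred log2 CPM. *Ghr* lay nearest to *Cav1* (0.204), *Prlr* (0.209), the prolactin receptor, and *Adcyap1r1* (0.220), against a median of 1.29 over all genes compared. *Igfbp3* lay nearest to *Adgrg2* (0.338), *Kcnt1* (0.406) and *Mc2r* (0.409), *Igf1* to *Pdgfra* (0.120), *Maob* (0.123) and *Pmp22* (0.130), and *Igfbp4* to *Rhoc* (0.0868), *Rbpms* (0.113) and *Sorbs3* (0.114). *Igfbp5* lay nearest to *Cped1* (0.129), *Abcc9* (0.132) and *Grb14* (0.135). The low-count *Igf2* lay nearest to *Gpc6*, *Mmp2* and *Fgfr3*, with differences of 0.378 to 0.396. All of these distances share the 14 libraries and their diet groups.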

How the data were processed

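RNA from bone marrow plugs of the distal tibia was sequenced in 14 samples from libraries that the labels describe as stranded, paired-end. The authors checked reads with FastQC 0.11.9, used STAR with the mm10 genome, and deposited raw counts per gene for each sample (unstranded, first-strand and reverse-strand) and 1 matrix of counts of 23441 genes. STAR leaves reads on 2 genes or at several places uncounted, which with unmapped reads took 21.1% to 25.6% of pairs. The authors' own comparisons used DESeq2 and were not used here.

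The unstranded count of all 14 samples was used, for the genes of the deposited matrix. The 10 genes and all lists were chosen with earlier results of these data known. Libraries were scaled by TMM, filterByExpr kept 17494 genes, and edgeR's robust quasi-likelihood test was run in 1 model of the 4 groups, two-sided, with Benjamini-Hochberg adjustment over all genes tested within each comparison. A gene was called at padj under 0.05. CPM are from TMM-scaled library sizes. Standard errors are the absolute log2 fold change over the square root of F, and 95% intervals use the test's degrees of freedom. The test was run on simulated data first. Each sample pools 2 mice, and p-values measure the spread between such pools.

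All 10 genes were named, with *Pnpla2* as the check of genotype. From each pathway list, genes were named if called with CR in either genotype with more than a 2-fold change (1 on the log2 scale) and 50 or more counts on average, at most 4 a list, or else the gene of largest change. Other pathway and marker genes were named after their values were seen. Likeness used the tested genes averaging 50 or more counts, with a prior count of 2 on the log2 scale. Genes were placed by GENCODE M21 (GRCm38, the build mm10), in which all 10 identifiers have the same version. Protein sequences were not used here. Alternatives were other scalings (DESeq2 size factors, upper quartile, total counts), DESeq2, limma-voom, other filters on low counts, the deposited matrix, reverse-strand counts of 11 samples, only the groups compared, a model without interaction, a fit without robust, a block of replicate numbers, each sample left out in turn and, chosen after the data were seen, all genes of the per-sample files. For levels per kb and shares, the length of the longest transcript was an alternative to merged exons. The versions were edgeR 4.0.16, DESeq2 1.42.0 and limma 3.58.1 under R 4.3.3, and Python 3.11.15, pandas 2.3.3, numpy 2.4.6 and matplotlib 3.10.9.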

Additional observations from a re-analysis of the deposited data

Results flagged for a closer look

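In the 4 BMAd-Pnpla2+/+ AL samples, *Ghr* of replicate 1 stood apart at 97.2 CPM, while the other samples were between 40.6 and 48.4 CPM. The gap to the nearest sample was 0.861 of the range of the group, over the 95% critical value for 4 samples. Of the 22 groups of 4 samples examined (10 genes and *Pnpla2* in BMAd-Pnpla2+/+ AL and CR mice), this was the only 1 flagged, and chance flags about 1 in 20. The summed adipocyte markers of the same sample were 1861 CPM, against 725 to 828 in the other AL samples of this genotype. Its endothelial markers summed to 769.9 CPM, against 526 to 575. Its osteoblast and osteocyte markers summed to 1107 CPM, against 478 to 759, and its macrophage markers to 1398, against 978 to 1002. Its stromal markers summed to 5369 CPM, against 4324 to 5373 in the other AL samples of this genotype. The part of these cells in the *Ghr* value was not tested. Without this sample *Ghr* was called with CR in both genotypes, and its difference between genotypes under AL went from a log2 fold change of -0.36 to 0.016.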

How the results depend on the processing

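The IGF system genes called with CR in BMAd-Pnpla2+/+ mice numbered 6 under each alternative that kept all samples of the comparison and gave a value for all 10, and 3 to 7 with 1 sample left out: 3 (*Ghr*, *Igf2* and *Igfbp3*) without AL replicate 3 or CR replicate 3, and 7 without CR replicate 4. In BMAd-Pnpla2-/- mice they numbered 3 in the report, 4 by DESeq2, 2 without a filter on low counts, 3 under the other scalings and limma-voom, 6 under the model of genotype and diet without interaction, where 1 diet effect serves both genotypes, and 1 to 4 with 1 sample left out. *Igfbp3* alone was called without BMAd-Pnpla2-/- AL replicate 1 or BMAd-Pnpla2-/- CR replicate 3. For both genotype comparisons and the difference in response the count was 0 throughout. *Igfbp5* in BMAd-Pnpla2-/- mice was not called without a filter on low counts (padj = 0.0612).

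The signs that turned all belonged to values that passed no test. The difference in response of *Igfbp5* (0.02) became -0.016 with DESeq2 size factors and by DESeq2, -9.4e-05 with upper quartile factors and -0.037 without a filter, and that of *Igf1* became 0.041 by limma-voom and 0.028 with the replicate block. *Igf1r* with CR in BMAd-Pnpla2+/+ mice became 0.0088 with upper quartile factors, 0.037 with total counts, 0.013 with the filter of 50 counts on average and 0.081 without interaction. With CR in BMAd-Pnpla2-/- mice *Igfbp6* became 0.049 and *Igfbp7* 0.013 with total counts, and *Igfbp7* 0.28 without interaction. Without interaction *Igfbp2* became -0.041 with CR in BMAd-Pnpla2+/+ mice, and the genotype differences under AL became -0.25 for *Igfbp2*, -0.068 for *Igf2*, -0.19 for *Igfbp4* and 0.0046 for *Igfbp6*, which limma-voom put at 0.065. With the replicate block the genotype difference of *Igfbp4* under AL became -0.037 and that of *Igfbp6* under CR -0.17. The cause was not tested.

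With 1 sample left out, log2 fold changes with CR ran from -0.10 to 0.047 for *Igf1r* and -0.62 to 0.078 for *Igfbp6* in BMAd-Pnpla2+/+ mice, and from -0.23 to 0.12 for *Igfbp6* and -0.27 to 0.20 for *Igfbp7* in BMAd-Pnpla2-/- mice. Genotype differences under AL ran from -0.36 to 0.24 for *Igf1*, -0.036 to 0.11 for *Igf1r*, -0.73 to 0.016 for *Ghr*, -0.029 to 0.78 for *Igfbp2*, -0.37 to 0.26 for *Igfbp3*, -0.20 to 0.29 for *Igfbp4*, -0.32 to 0.10 for *Igfbp5*, -0.32 to 0.10 for *Igfbp6* and -0.36 to 0.063 for *Igfbp7*. Under CR they ran from -0.25 to 0.14 for *Igf1*, -0.69 to 0.34 for *Igf2*, -0.79 to 0.17 for *Igfbp3*, -0.24 to 0.095 for *Igfbp5* and -0.16 to 0.54 for *Igfbp6*. The difference in response ran from -0.31 to 0.28 for *Igf1*, -0.65 to 0.088 for *Ghr*, -0.60 to 0.36 for *Igfbp3*, -0.21 to 0.22 for *Igfbp5* and -0.10 to 0.60 for *Igfbp6*.

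The replicate numbers did not pair the samples: deviations from the group means correlated between -0.37 and 0.33 (median 0.02) over 19 pairs of samples with the same number, 7 of them over 0.1. With the number as a replicate block, 6 and 3 genes were called with CR and 0 in the other comparisons.

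Counts over all genes moved more than those of the IGF system. With CR they were 4543 in BMAd-Pnpla2+/+ mice, 2689 with only the groups compared and 2200 without CR replicate 3. In BMAd-Pnpla2-/- mice they were 2025, against 3098 by DESeq2, 3898 from the deposited matrix, 6076 without interaction and 248 without CR replicate 3. Of these calls 51.9% were higher, against 67.0% with total counts and 39.5% without a filter. The genotypes under CR differed in 3 genes, but in 0 with only the groups compared, 8 with total counts, 303 with the filter of 50 counts, 1617 by DESeq2, 2451 from the deposited matrix and 2092 without BMAd-Pnpla2+/+ CR replicate 4. Under AL they differed in 0, and in 19 by DESeq2, and the responses in 0, 65 by DESeq2 and 678 from the deposited matrix. *Igf2*, *Igfbp2* and *Igfbp6* had no value under the filter of 50 counts, nor BMAd-Pnpla2-/- CR comparisons with reverse-strand counts. Depth limits *Igf2*, *Igfbp2* and *Igfbp6*, and 3 or 4 pools per group limit all genes.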
